A study of Rattus norvegicus with 5 samples.

Results

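The proteasome subunit genes were followed in Fao cells over the first 60 min of insulin. Genes were taken by name from the array's own annotation: every spot that was not a control and whose gene name began with Psma, Psmb, Psmc, Psmd or Psme, with the suffix for predicted genes ignored. This gave 49 probes for 41 gene names, of 41012 probes and 35655 genes or transcripts on the array. A count of 40 of them code for proteasome subunits, activators or assembly chaperones. The remaining name, Psmc3ip, codes for a partner protein in meiotic recombination and is a class of its own here. It is included in the counts, medians and shares over the 41 genes and in those over their promoter windows. Of the 41 genes, 34 had 1 probe, 6 had 2 probes and 1 (Psmd7) had 3.

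Fao is a line of rat hepatoma cells that keeps many hepatocyte traits and responds to insulin. All 5 samples shared 1 pretreatment: culture in RPMI medium with serum, then 16 h without serum in 10 nM dexamethasone, a synthetic glucocorticoid. Insulin at 10 nM was then given for 0, 15, 30, 45 or 60 min, and the sample at 0 min is the baseline. Each time had 1 array and no replicate, so no change at a single time carries a p-value. No insulin-free samples at the later times were analysed here, so time since the end of starvation and time in insulin cannot be told apart. The cells are an established tumour line, and total RNA came from whole cultures. A transcript held by fewer cells and less of it per cell thus cannot be told apart in any change. Changes are relative to the other transcripts of the array.

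The 26S proteasome degrades proteins that carry ubiquitin chains. Its 20S core is a barrel of stacked alpha and beta rings. The alpha rings gate the entry, and the beta rings hold the proteolytic sites, formed by Psmb5, Psmb6 and Psmb7. The 19S particle caps the core, where its non-ATPase subunits bind and trim ubiquitin chains and its ring of ATPases unfolds the substrate. In liver, proteasomes turn over metabolic enzymes and signalling proteins, insulin receptor substrates among them. Insulin restrains protein breakdown in many tissues, and forkhead factors, which insulin signalling keeps out of the nucleus, raise transcripts of ubiquitin ligases in muscle.

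The control regions were examined first, because transcription factors known to act on these genes have short recognition sequences. Promoter windows from RefSeq, on assembly GRCr8, ran from 250 bases before the start of each gene to 50 after it, and 38 of the 41 genes had one (not Psma7, Psmd6 and Psmd12). Both strands were searched, in these and in all 33469 windows of the table. The antioxidant response core TGACNNNGC is the kind of site bound by Nfe2l1, which raises proteasome genes when proteasomes fail, and by its relative Nfe2l2. This core was found in 8 of 38 proteasome windows (21.1%), against 12.1% of all windows. The following windows are the stretches before the start that hold it, with up to 30 bases on either side, written 5′ to 3′ on the gene's strand with the match in capitals. They are shown because their letters match the core read by the best known regulators of these genes.
Psma3 (chr6:95219707-95219748, plus strand): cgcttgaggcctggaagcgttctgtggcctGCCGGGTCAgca
Psmb2 (chr5:144254960-144255028, plus strand): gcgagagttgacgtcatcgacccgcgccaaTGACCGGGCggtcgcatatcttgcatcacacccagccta
Psmb5 (chr15:32047401-32047469, minus strand): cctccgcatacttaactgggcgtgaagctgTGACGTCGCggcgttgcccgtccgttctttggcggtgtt
Psmb6 (chr10:55737834-55737887, plus strand): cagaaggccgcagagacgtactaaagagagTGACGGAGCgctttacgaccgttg
Psmd1 (chr9:94157776-94157844, plus strand): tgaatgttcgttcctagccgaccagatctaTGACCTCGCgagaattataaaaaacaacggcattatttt
Psmd9 (chr12:39018303-39018418, minus strand): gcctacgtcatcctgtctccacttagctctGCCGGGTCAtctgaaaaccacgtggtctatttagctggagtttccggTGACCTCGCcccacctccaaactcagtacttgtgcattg
Psme4 (chr14:108706558-108706626, plus strand): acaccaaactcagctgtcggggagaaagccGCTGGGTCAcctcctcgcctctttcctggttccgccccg

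Psmd3, and Psmd1 a second time, held the same letters after the start. The 8 genes came from the core, the 19S particle, its chaperones and the activators. In the capitals of Psma3 and Psme4, and in the first capitals of Psmd9, the match reads on the opposite strand. The match in Psmb2 overlapped both a CCAAT box and an Sp1 core GGGCGG, and in Psme4 a match of CCGGAAG overlapped one of GGGCGG. No other matches of different motifs overlapped.

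The interferon response core, a pair of GAAA blocks with 2 bases between them, was found in 6 of 38 proteasome windows (15.8%), against 3.92% of all windows. It is shown for Psmb10 and Psme2, which interferon is known to induce, again with matches in capitals. Psmb10 held it on 2 separate stretches.
Psmb10 (chr19:50743293-50743395, minus strand): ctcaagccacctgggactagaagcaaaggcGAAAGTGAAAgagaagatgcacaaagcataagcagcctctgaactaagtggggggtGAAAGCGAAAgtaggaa
Psme2 (chr15:33052765-33052834, minus strand): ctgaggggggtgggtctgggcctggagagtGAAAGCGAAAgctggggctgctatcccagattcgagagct

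Psmb8, another interferon-induced gene, held a match across its start, and Psma4, Psmb3 and Psmd7 held one each before theirs. No match was found in the windows of Psmb9, an inducible subunit, and Psme1, the partner of Psme2. The ETS core CCGGAAG was found in 13 of 38 proteasome windows (34.2%), against 8.75% of all windows. The Sp1 core GGGCGG was in 27 of 38 proteasome windows (71.1%), against 33.1% of all windows, and CCAAT in 20 of 38 proteasome windows (52.6%), against 37.5% of all windows. The forkhead core GTAAACA, the kind of site read by the insulin-regulated forkhead factors, was in 1 of 38 proteasome windows (2.63%), against 3.78% of all windows, and that gene was Psme2, with the match after the start. A match of letters is a description of these windows and does not show that a factor binds there. The windows were not matched on base composition, and whether the shares are particular to proteasome genes was not tested.

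**Figure D1:**
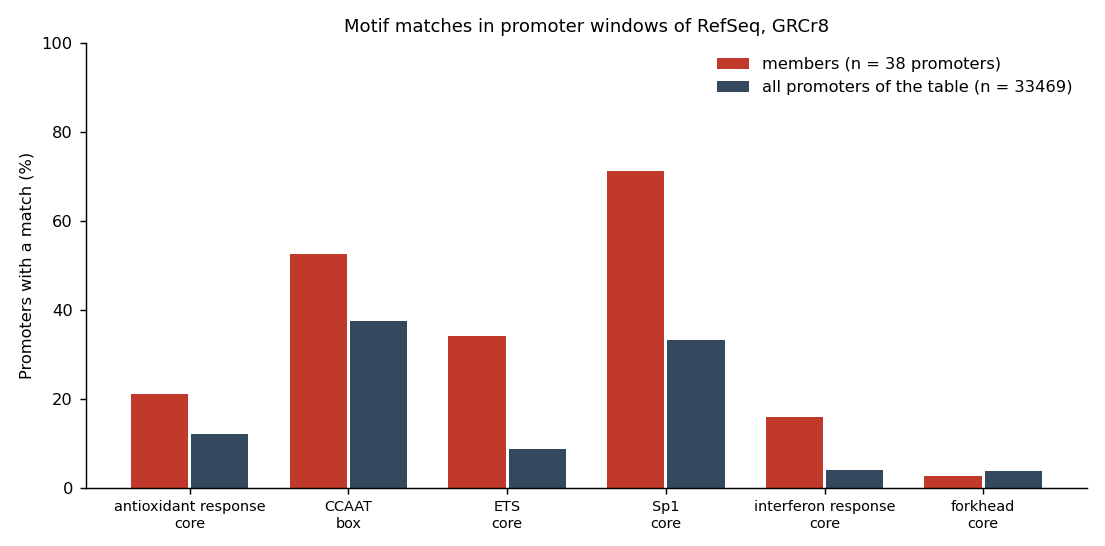
Share of promoter windows, in percent, that hold each of 6 motifs on either strand, for the 38 proteasome windows (left bar of each pair) and all 33469 windows (right bar). The Sp1 core stands at 71.1% of the proteasome windows against 33.1% of all, and the forkhead core at 2.63% against 3.78%. The windows were not matched on base composition.

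All 49 probes were measured well above background on all 5 arrays and none was saturated. The scanner software's own error of these spots was 10.0% to 10.1% of the signal. It marked a single member spot as an outlier, that of the brightest Psmd2 probe at 60 min, which was left out, so 40 of the 41 genes had a value at 60 min. Levels are processed signals divided by the 75th percentile of their array, on the log2 scale, read from a gene's brightest probe, and a change is the level at a time minus that at 0 min. Probe positions are on rn4. Levels of different probes were not set against each other. Of 43379 spots that were not controls, the 60 min array had 24489 well above background and a 75th percentile of signal of 480, and the other 4 arrays had 22069 to 22819 such spots and percentiles of 254 to 300. The arrays of 0 to 45 min shared a slide and the 60 min array lay on another, so slide and time cannot be told apart at 60 min. Of 10 hepatocyte markers all were well above background on every array. Of 12 markers of other liver cell types on the array, 5 (Adgre1, Pecam1, Col3a1, Pdgfrb and Krt7) were on none, Kdr was on 4 arrays, and Cd68, Cd14, Cdh5, Col1a1, Krt19 and Sox9 were on all 5. Of these 6, Cdh5 was 1.51-fold lower at 60 min and the others were within 1.5-fold at each time.

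No proteasome gene was higher or lower by 1.5-fold at any time. The count was 0 of 41 genes at 15, 30 and 45 min and 0 of 40 at 60 min. Among the 16707 genes that every array measured well above background, 1.69%, 1.87%, 2.55% and 6.53% passed 1.5-fold at 15, 30, 45 and 60 min, and 0.287%, 0.383%, 0.527% and 1.1% passed 2-fold. With genes that only 1 of the 2 arrays measured well above background let in, the shares past 1.5-fold were 4.89%, 4.99%, 6.11% and 10.2%. Of the 8345 genes at or above the 75th percentile on every array (called bright genes here), 0.419%, 0.743%, 1.03% and 3.27% passed 1.5-fold. The proteasome genes were themselves bright on every array, and most lay far above the 75th percentile. Bright genes were thus not matched to them on level. At the shares over bright genes, 41 genes would hold 0.172, 0.305, 0.423 and 1.34 called genes, and at those over all genes 0.692, 0.766, 1.05 and 2.68. A count of 0 therefore lay near the background and is no result about the proteasome genes. With the planned normexp background in place of the scanner's, 22 of the 41 genes were 1.5-fold lower at 15 min, and none were once 5 spots of that array were left out of its fit, an alternative chosen after seeing the data.

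The median change of the proteasome genes was 0.02, 0.01, 0.01 and 0.02 (log2) at 15, 30, 45 and 60 min, against 0.03, 0.02, 0.02 and 0.02 over all genes on 5 arrays. Changes above 0 numbered 24, 22, 23 and 21 and changes below 0 numbered 17, 19, 18 and 19. Values above and below 0 were thus nearly balanced at each time. Their changes had a standard deviation of 0.100, 0.104, 0.102 and 0.176 (log2), against 0.160, 0.181, 0.186 and 0.273 among bright genes and 0.219, 0.231, 0.244 and 0.330 among all genes on 5 arrays. Repeat spots of 1 probe on the same array gave a technical standard deviation of a change of 0.196, 0.189, 0.196 and 0.184, estimated from probes with at least 8 spots. The changes of 39, 40, 39 and 28 proteasome genes lay within it, or 95.1%, 97.6%, 95.1% and 70.0% of them, against 81.4%, 76.2%, 78.1% and 52.2% of bright genes and 72.3%, 68.2%, 69.8% and 47.7% of all genes on 5 arrays. Repeat spots do not cover the spread between cultures, and the repeated probes were not matched to the proteasome genes on level. The standard deviation of the proteasome changes lay below the technical value at each time, so that value is no close measure of their noise. Spread was also smaller among bright genes than among all genes. Whether the narrower spread of the proteasome genes goes with their level was not tested.

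**Figure D2:**
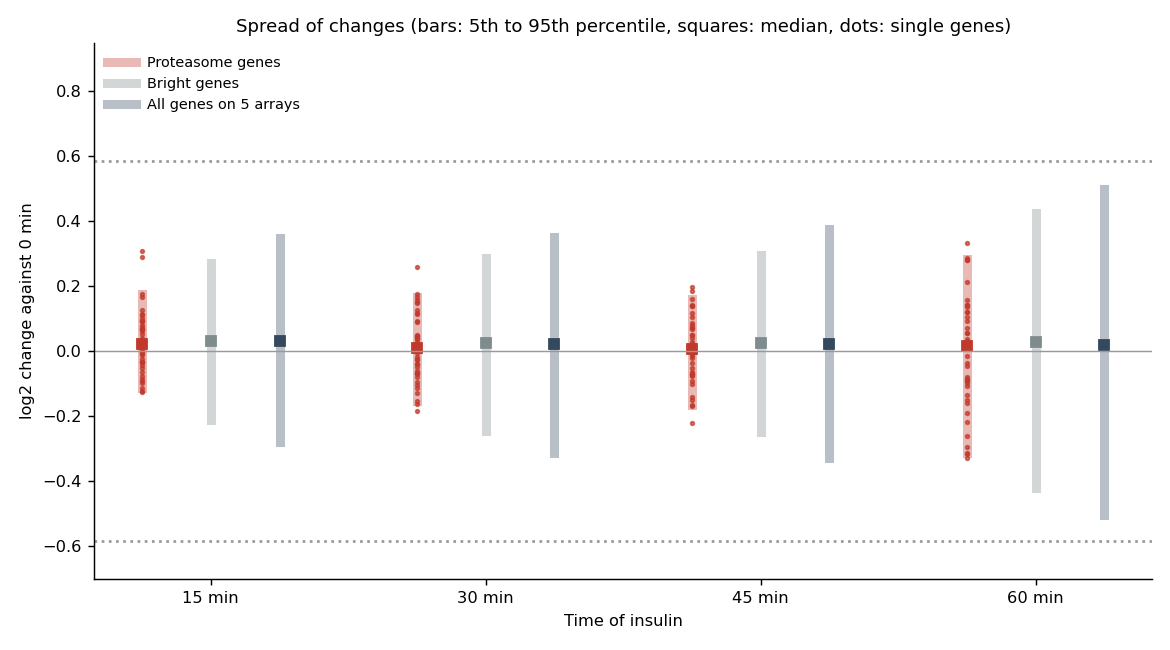
Log2 change against 0 min at each time for the proteasome genes (left, each gene a dot), bright genes (middle) and all genes on 5 arrays (right). Bars run from the 5th to the 95th percentile, squares are medians and dotted lines mark 1.5-fold, which no proteasome gene reaches. The 60 min bars are the longest in each of the 3 sets.

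Over the 5 arrays, the difference between a proteasome gene's highest and lowest level had a median of 0.21 (log2), against 0.31 among bright genes and 0.36 among all genes on 5 arrays. It ran from 0.07 for Psmb9 to 0.53, or 1.44-fold, for Psme4. On the 4 arrays of the first slide the median was 0.12 for proteasome genes, 0.19 for bright genes and 0.23 for all. These sets were not matched on level. The time at which genes stood highest was spread over the course, at 0 min for 4, 15 min for 9, 30 min for 9, 45 min for 8 and 60 min for 11. The lowest level fell at 0 min for 6 genes, 15 min for 3, 30 min for 7, 45 min for 9 and 60 min for 16. These counts were not set beside those of other genes and are no result about the timing of proteasome genes. The 60 min array, alone on its slide, had the widest spread of changes among proteasome genes, bright genes and all genes.

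The 7 genes of the alpha ring had median log2 changes of 0.06, 0.02, 0.01 and 0.06 at 15, 30, 45 and 60 min. Psma6, an alpha ring subunit read at chr6:75667273-75667332 on rn4, had log2 levels of 6.68, 6.97, 6.94, 6.79 and 6.64 at 0, 15, 30, 45 and 60 min. It stood highest at 15 and 30 min and was back near its 0 min level by 60 min. Psma7, another gate-ring subunit, had levels of 6.11, 6.08, 6.26, 6.25 and 5.80, with the 60 min array lowest. Psma3 had levels of 4.70, 4.79, 4.72, 4.71 and 4.91, lowest at 0 min and highest at 60 min, the opposite order to Psma7 at the last time. The other alpha subunits, Psma1, Psma2, Psma4 and Psma5, ranged by 0.11 to 0.34 (log2) over the arrays.

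In the beta ring, the constitutive proteolytic subunits differed from their 0 min levels by at most 1.23-fold. Psmb5, which cuts after hydrophobic residues and is the main target of the drug bortezomib, was read at chr15:32690134-32690193 and had log2 levels of 4.75, 4.62, 4.59, 4.58 and 4.89. It lay below its 0 min level on the 3 arrays from 15 to 45 min and above it at 60 min. Psmb6, which cuts after acidic residues (chr10:57371368-57371427), had levels of 3.84, 3.89, 3.93, 3.96 and 3.68. Psmb7, which cuts after basic residues, had levels of 4.58, 4.75, 4.67, 4.72 and 4.28. Its probe spans chr3:18413231-18433105, more than its own length. Both Psmb6 and Psmb7 had signs opposite to Psmb5, above 0 min from 15 to 45 min and below it at 60 min. All these changes but that of Psmb7 at 60 min lay within the technical standard deviation.

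The non-proteolytic beta subunits lay as close to their 0 min levels. Psmb4, which takes part in the assembly of the ring, had log2 levels of 5.39, 5.48, 5.54, 5.57 and 5.52 and was above its 0 min level at all 4 later times. Psmb1 had levels of 4.16, 4.09, 4.05, 4.01 and 4.14 and was below it at all 4. Psmb2 differed from 0 min by -0.09, -0.07, -0.01 and -0.09 and Psmb3 by -0.02, -0.05, -0.07 and -0.15 (log2), both below it at each time. Over the 7 constitutive beta genes the median changes were -0.02, -0.05, -0.01 and -0.09.

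The inducible subunits Psmb8, Psmb9 and Psmb10 replace Psmb5, Psmb6 and Psmb7 in immunoproteasomes, which make peptides for MHC class I. Psmb8 (chr20:4787980-4788039) had log2 levels of 1.12, 0.996, 0.96, 1.05 and 1.15. Psmb9, its neighbour in the MHC region (chr20:4806341-4806400), had levels of 3.72, 3.78, 3.76, 3.79 and 3.75, the narrowest range of all the proteasome genes. Psmb10 (chr19:35777711-35777770), whose promoter holds the interferon response core on 2 stretches, had levels of 3.18, 3.30, 3.24, 3.18 and 3.26. Psmb9 was above its 0 min level at every later time, Psmb8 below it at 15, 30 and 45 min, and Psmb10 above it at 15, 30 and 60 min. A pair of related ring subunits that carried other names on the array, the testis alpha subunit Psma8 and the thymus beta subunit Psmb11, were not well above background on any array.

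The MHC class I loading genes that these subunits serve were set beside them. Tap2, a subunit of the peptide transporter, had log2 levels of 0.82, 1.24, 1.29, 1.42 and 0.80, with changes of 0.42, 0.46, 0.60 and -0.02. It stood above 0 min on the 3 later arrays of the first slide, past 1.5-fold at 45 min only, and was at its 0 min level on the 60 min array. Its partner Tap1 differed from 0 min by -0.22, -0.10, -0.03 and -0.10 and the adaptor Tapbp by 0.10, 0.02, 0.24 and 0.21. The light chain B2m differed by -0.08, -0.05, -0.06 and -0.35 by its brightest probe, and at 60 min by 0.06, 0.13 and -0.18 by the other 3. Thus 1 of these 4 genes, read by 1 probe, passed 1.5-fold at 45 min and none at the other times. At 45 min 2.55% of all genes on 5 arrays passed 1.5-fold in either direction.

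**Figure D3:**
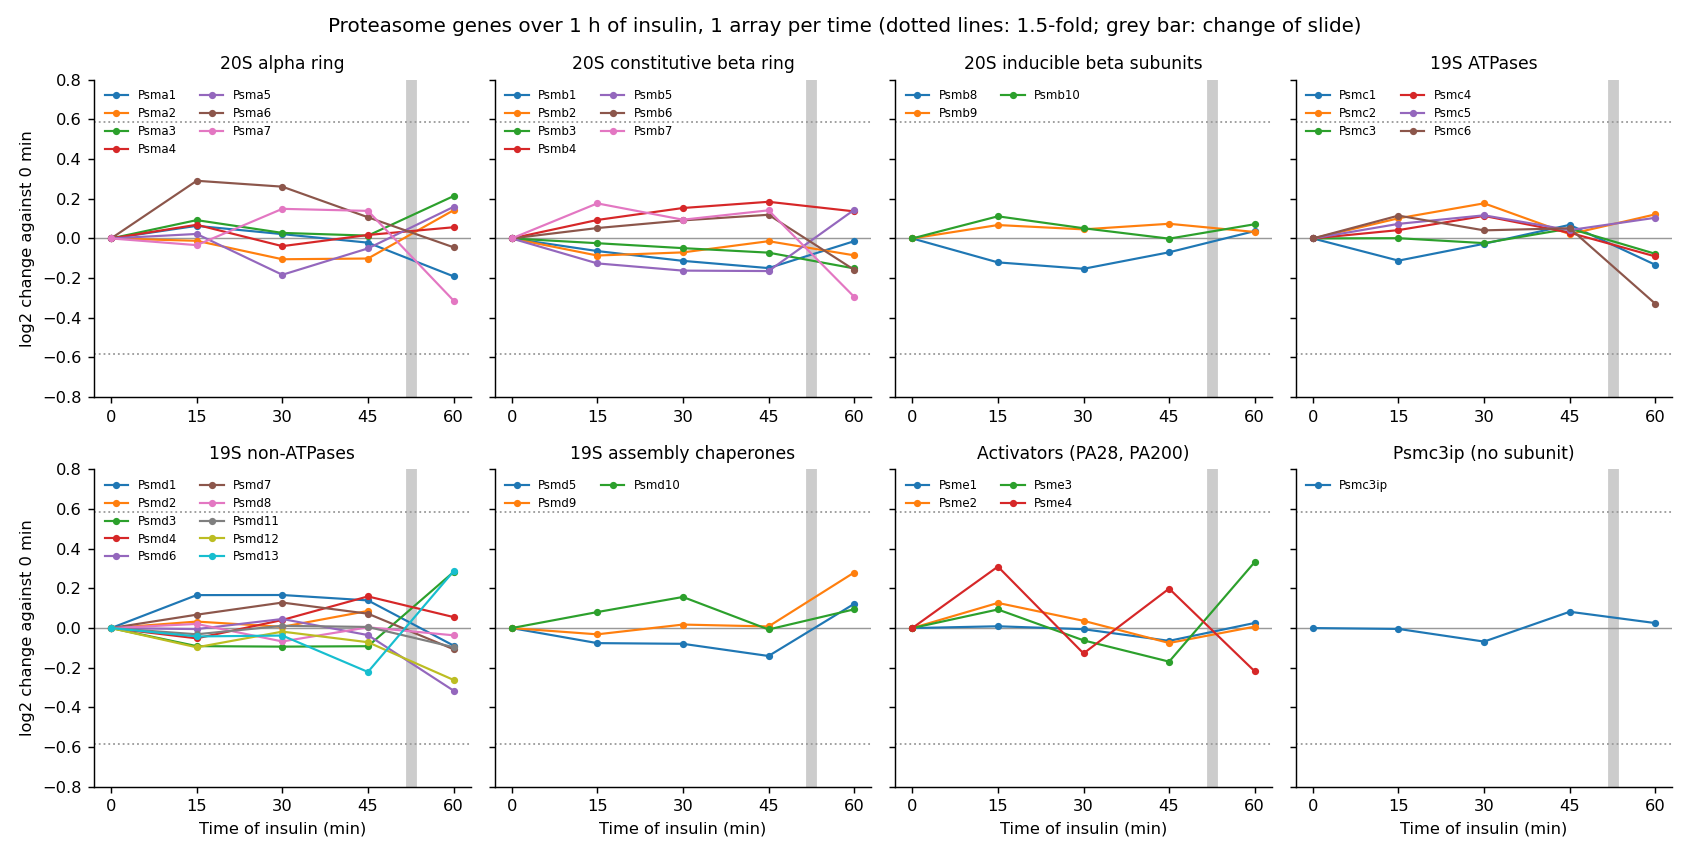
Log2 change against 0 min (vertical axis) by minutes of insulin (horizontal axis) for the 41 genes in 8 classes, 1 array per time. Dotted lines mark 1.5-fold and the grey bar the change of slide between 45 and 60 min. All lines stay between -0.33 and 0.33, and several part at 60 min.

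The 6 ATPases of the 19S ring, which unfold substrates and open the gate of the core, had median log2 changes of 0.06, 0.08, 0.05 and -0.08 at 15, 30, 45 and 60 min. At 45 min all 6 lay between 0.02 and 0.07. Psmc2 had log2 levels of 5.60, 5.70, 5.78, 5.62 and 5.72, lowest at 0 min and highest at 30 min. Psmc6 (chr15:21238124-21238183) had levels of 5.09, 5.20, 5.13, 5.14 and 4.76 by its brightest probe, the 60 min array being the lowest. Psmc1, Psmc3, Psmc4 and Psmc5 ranged by 0.12 to 0.20 over the arrays.

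The 10 non-ATPase subunits had median log2 changes of -0.02, 0.01, 0.00 and -0.09. Psmd1, a large scaffold subunit of the base (chr9:84882853-84882912), had log2 levels of 6.80, 6.97, 6.97, 6.94 and 6.71, above 0 min from 15 to 45 min and just below it at 60 min. Psmd4, a receptor for ubiquitin chains (chr2:189933368-189933427), had levels of 5.04, 4.99, 5.08, 5.20 and 5.10, highest at 45 min. Psmd2, a scaffold that docks ubiquitin-binding shuttles, had levels of 6.64, 6.67, 6.65 and 6.73 at 0, 15, 30 and 45 min and no value at 60 min.

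The lid of the 19S particle is built around a horseshoe of related scaffold subunits. Psmd3 (chr10:87465622-87465681) had log2 levels of 2.88, 2.79, 2.79, 2.79 and 3.17. Psmd6 had levels of 2.80, 2.80, 2.85, 2.77 and 2.49 and Psmd12 had 4.48, 4.39, 4.46, 4.41 and 4.22. Psmd13 had levels of 2.79, 2.75, 2.76, 2.57 and 3.08, the widest range of the class at 0.51. On the first slide these 4 lid genes lay within 0.10 of their 0 min levels, but for Psmd13 at 45 min (-0.22). At 60 min Psmd3 and Psmd13 were above 0 min while Psmd6 and Psmd12 were below it. Psmd7, the partner of the deubiquitinase subunit, differed from 0 min by 0.07, 0.13, 0.07 and -0.11 by its brightest probe. Psmd8 and Psmd11 ranged by 0.09 and 0.11. Psmd14, the deubiquitinase subunit itself, was not found by the rule and was not analysed here.

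The chaperones Psmd5, Psmd9 and Psmd10 help the ATPase ring to assemble and leave before the particle is complete. Psmd9 (chr12:34500658-34500717), whose promoter holds the antioxidant response core on 2 stretches, had log2 levels of 4.57, 4.54, 4.58, 4.58 and 4.85. Its 4 arrays of the first slide lay within 0.05 of each other and the 60 min array was 0.28 above 0 min. Psmd5 differed from 0 min by -0.08, -0.08, -0.14 and 0.12 and Psmd10 by 0.08, 0.16, -0.01 and 0.09. All 3 chaperone genes were above 0 min at 60 min.

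The activators bind the ends of the core in place of the 19S particle. Psme1 and Psme2, which form the interferon-inducible PA28 ring, had log2 levels of 3.77, 3.77, 3.76, 3.70 and 3.79 for Psme1 and 3.26, 3.38, 3.29, 3.18 and 3.26 for Psme2. Neither differed from its 0 min level by over 0.13. Psme4, the single-chain nuclear activator PA200 (chr14:111990483-111990542), had levels of 1.35, 1.66, 1.22, 1.54 and 1.13. It was above 0 min at 15 and 45 min and below it at 30 and 60 min, the widest range of all 41 genes. Psme3, which forms the nuclear PA28 ring, differed from 0 min by 0.09, -0.06, -0.17 and 0.33. The non-subunit Psmc3ip had levels of 0.87, 0.87, 0.80, 0.95 and 0.90, a range of 0.15.

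Probes of the same gene were compared for the 7 genes that had several. The gap between their changes had a median of 0.11, 0.17, 0.13 and 0.36 (log2) at 15, 30, 45 and 60 min, and the signs were opposite in 5, 5 and 5 of 7 genes and in 4 of 6. For Psma6 the brightest probe differed from 0 min by 0.29, 0.26, 0.11 and -0.04, and the other, at chr6:75660606-75660665, by -0.06, -0.07, -0.02 and 0.21. The higher Psma6 level at 15 and 30 min was thus read by 1 of its 2 probes. For Psmc6 the brightest and the other probe gave -0.33 and 0.19 at 60 min.

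For Psmd1 both probes were above 0 min from 15 to 45 min, the brightest by 0.17, 0.17 and 0.14 and the other by 0.19, 0.15 and 0.06. At 60 min they gave -0.09 and -0.53, and -0.53 (1.44-fold lower) was the largest change of any of the 49 probes. For Psme4 both probes were above 0 min at 15 and 45 min, the brightest by 0.31 and 0.20 and the other by 0.26 and 0.18. They gave opposite signs at 30 min and at 60 min. The other Psmd2 probe, measured on all 5 arrays, differed from 0 min by -0.36, -0.34, -0.31 and 0.10, against 0.03, 0.01 and 0.09 at 15, 30 and 45 min by the brightest. For Psmd7 the brightest probe gave -0.11 at 60 min, and the others 0.34 and 0.33.

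Of the 49 member probes, 29 mapped over exactly their own 60 bases on rn4 and 20 over more. Exons and untranslated regions were not assigned, as no annotation of rn4 was used here. By each probe on its own, 0 of 49 passed 1.5-fold at 15, 30 and 45 min and 0 of 48 at 60 min.

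**Figure D4:**
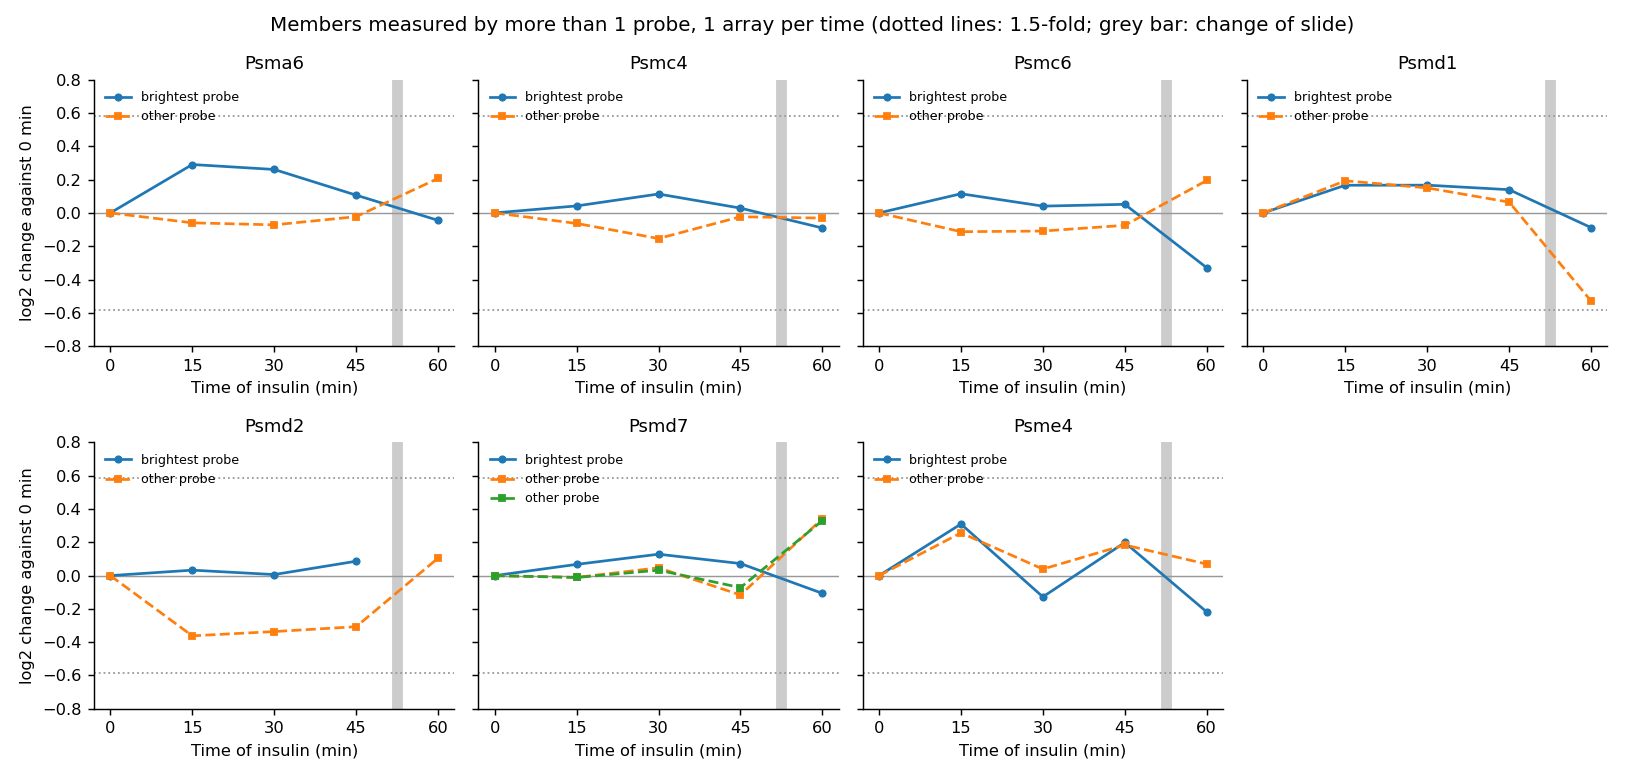
Log2 change against 0 min by minutes of insulin for the 7 genes with more than 1 probe, 1 line per probe (solid, brightest; dashed, others). Dotted lines mark 1.5-fold and the grey bar the change of slide. The Psmd1 probes run together on the first slide, while those of Psma6 and Psmd2 part at 15 and 30 min.

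A straight trend over time was the main test, as no single time has a replicate. limma was fitted with a slope on time for the 20529 genes that at least 1 array measured well above background, with 3 residual degrees of freedom, and Psmd2 used its 4 arrays. No gene passed a 5% false discovery rate (0% of all genes), and 1767 genes (8.61%) had an unadjusted p under 0.05. None of the 41 proteasome genes did, where that share would hold 3.53. Their slopes ran from -0.29 to 0.24 log2 per hour, 20 above 0 and 21 below, against 10586 above and 9943 below among all genes fitted. The 60 min array is the only array of its slide. Slope and slide therefore cannot be fully told apart for any proteasome gene but Psmd2, nor in the share of all genes.

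The steepest slopes below 0 belonged to Psmc6, at -0.29 (95% interval -0.75 to 0.18), Psmd6, at -0.26 (-0.66 to 0.13), and Psmb7, at -0.25 (-0.78 to 0.28). Psmd9, at 0.24 (-0.13 to 0.61), and Psmd3, at 0.23 (-0.24 to 0.70), were the steepest above 0. These slopes rest largely on the 60 min array. Psmc6 differed from 0 min by 0.12, 0.04 and 0.05 on the first slide and by -0.33 at 60 min. Psmd9 differed by -0.03, 0.02 and 0.01 and then by 0.28. Psmd6 had the smallest p of the proteasome genes (limma, adjusted p = 0.624), followed by Psmd9 (adjusted p = 0.630) and Psmc6 (adjusted p = 0.640). Psmd12 came next among genes below 0 (limma, adjusted p = 0.659), and Psmd3 and Psmb4 among those above it (adjusted p = 0.710 for Psmd3 and adjusted p = 0.715 for Psmb4). The intervals reached 0.30 to 0.62 log2 per hour to either side (median 0.35), and smaller slopes of single genes cannot be told from 0 with these 5 arrays. Their outermost bounds were -0.84 for Psme4 and 0.73 for Psme3.

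Other genes of the pathway, a list of 29, were set beside the subunits. On the array 25 had a probe (not Sem1, Ecpas, Psmg4 and Psmf1), and 24 were well above background on all 5 arrays, all but Nploc4. By the brightest probe of each, none of the 24 passed 1.5-fold at 15, 30 or 45 min. At 60 min none was 1.5-fold higher and 1 (Ubqln2) was 1.5-fold lower. Of all genes on 5 arrays, 1.69%, 1.87%, 2.55% and 6.53% passed 1.5-fold in either direction at 15, 30, 45 and 60 min. A second probe of the ubiquitin ligase Ube3c, well above background on all 5 arrays, had log2 levels of -2.99, -2.24, -2.53, -2.39 and -2.36, past 1.5-fold higher at 15, 45 and 60 min. The brightest Ube3c probe differed from 0 min by 0.00, 0.09, 0.00 and 0.12. The median changes of the list were 0.04, 0.07, 0.05 and 0.00.

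Ubb, a polyubiquitin gene, had log2 levels of 8.88, 8.85, 8.83, 8.62 and 8.41 by its brightest probe. It differed from 0 min by -0.03, -0.05, -0.26 and -0.47 by its brightest probe and by -0.03, 0.05, 0.09 and 0.04 by the other. Ubqln2, a shuttle that carries ubiquitinated proteins to the proteasome, was 1.63-fold lower at 60 min. Its levels of -3.67, -3.42, -3.52, -3.44 and -4.37 lay close to the background floor of -4.90, and its second probe was not well above background on any array. Rps27a, which codes for ubiquitin joined to a ribosomal protein, differed from 0 min by 0.17, 0.16, 0.28 and -0.08.

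The known regulators of the proteasome genes were within 1.5-fold of their 0 min levels by every probe, though some changes passed the technical standard deviation. Nfe2l1, the factor that raises them when proteasomes fail, differed from 0 min by -0.18, 0.01, 0.04 and -0.06 by its brightest probe. Its other probe gave -0.004, -0.04, 0.19 and -0.02. Its relative Nfe2l2 differed by 0.17, 0.15, 0.08 and 0.15. Ddi2, the protease that processes Nfe2l1, differed by -0.02, -0.24, 0.09 and 0.25. Ngly1, the glycanase that processes it, differed by 0.15, 0.08, 0.05 and -0.17 by its brightest probe. The other Ngly1 probes gave -0.07, -0.18, -0.03 and 0.12, and 0.25, -0.06, -0.27 and 0.03. Pomp, which chaperones the maturing core, had levels of 6.86, 6.87, 6.97, 6.92 and 6.89. Among partners of the 19S particle, the deubiquitinase Usp14 had changes of 0.10, 0.12, 0.07 and 0.41 by its brightest probe and 0.12, 0.00, -0.20 and 0.19 by the other, and the ubiquitin receptor Adrm1 had -0.10, 0.25, -0.04 and 0.31. Transcripts do not show the amount or activity of these proteins.

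**Figure D5:**
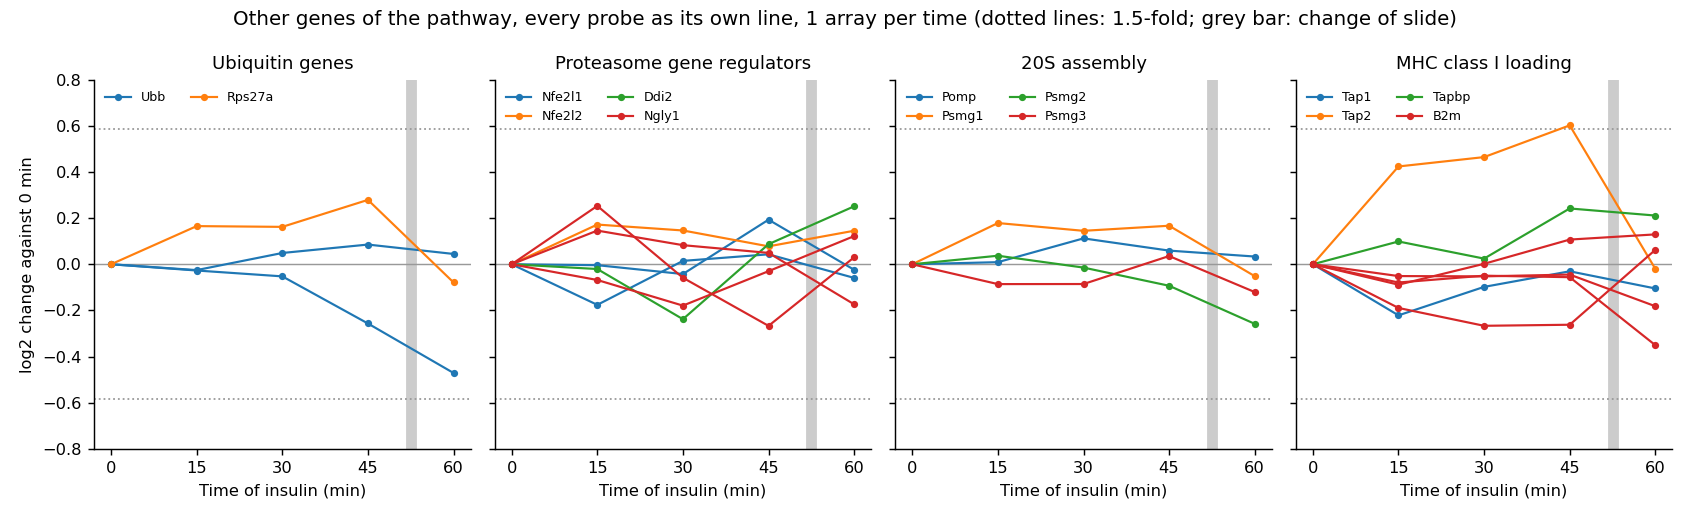
Log2 change against 0 min by minutes of insulin for genes beside the proteasome subunits, with every probe as its own line of the gene's colour, 1 array per time. Dotted lines mark 1.5-fold and the grey bar the change of slide. Of the Ubb probes 1 lies below 0 min at 45 and 60 min and the other above it, and Tap2 lies above it at 15 to 45 min.

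The mean change of the proteasome genes was 0.03, 0.01, 0.01 and -0.01 (log2) at the 4 later times. The genes whose levels followed this mean most closely over the 5 arrays, of 8750 named genes well above background on all of them, were Mia, Sft2d1, Nfrkb, Wdr44 and Notch2, with Pearson's r of 0.987 to 0.994. With 5 points that share their arrays, this order is a description only. Notch2 itself ranged by 2.30 (log2) over the arrays, and Mia by 0.23.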

How the data were processed

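RNA of Fao cells was labelled with Cy3 and hybridised to 1-colour Agilent rat arrays (design 014879, annotated on rn4), 1 array for each of 5 times. Groups follow the labelled times, and the labels number neither replicates nor cultures. Per the file headers, the authors took intensity from scans with Agilent Feature Extraction 9.5.3.1 after removal of a fitted background, and the deposited flags for outliers, saturation and spots well above background were used as set. The deposited series matrix holds log2 values made by steps not given in the sources used here. Its columns correlated at 0.9993 to 0.9999 with the scanner values centred per probe, across 19746 probes that are not independent replicates, and had medians of 0. How its probes were picked is unknown.

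From the processed intensity, control and outlier spots were left out, spots of a probe were averaged, signals were divided by the 75th percentile of the array's non-control spots, values under a common floor (log2 of -4.90, the highest over the arrays of the lowest level well above background) were raised to it, and the result was put on the log2 scale. A gene is its brightest probe. Of 41012 probes, 10798 were named by accession and 8662 by symbol through a RefSeq gene table of GRCr8, used for names only, and 21503 kept the name in the files. Changes have no test, since each time is 1 array. Arrays limit the precision by their number. The slope on time was fitted with limma 3.58.1 in R 4.3.3 over all 20529 genes, with Benjamini-Hochberg adjustment at 5%, after the fit was tested on simulated data. Other steps used Python 3.11.15 with pandas 2.3.3.

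The members and lists were chosen with earlier results of these data known. Given with every array's value were the 5 members with the highest and the 5 with the lowest mean change, the widest range of each class, the 3 members of either slope direction with the smallest p, and Psmb5 to Psmb10, Psme1, Psme2, Psmd4 and Psmc3ip whatever their change. All probes of members with several were described. Some genes of the ubiquitin system are not reported here and were left out of the list of other pathway genes, whose counts are without them. Other pathway genes were to be named past 1.5-fold, and those named without passing it were chosen by their role after their values were seen. Alternatives were quantile scaling, normexp background, the series matrix, other filters, probes and baselines, and leaving out each array.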

Additional observations from a re-analysis of the deposited data

How the results depend on the processing

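No paired analysis was possible because each time has 1 array and the labels give no replicate numbers. Of the recomputed counts of proteasome genes past 1.5-fold or 2-fold, 155 were as reported and 1 was not. With normexp background, 22 genes were 1.5-fold lower at 15 min and their median change then was -0.61, against 0.13 over all genes. Refitted without 5 spots of the 15 min array whose local background exceeded the spot by over 20 units (chosen after seeing the data), no gene passed and the median was 0.00. Normexp also put the median of all genes at -0.11 at 60 min. Under the alternatives in all, median changes ran from -0.61 to 0.02 at 15 min, -0.04 to 0.01 at 30 min, -0.03 to 0.02 at 45 min and -0.02 to 0.07 at 60 min. The alternatives include changes against the 15 min array and against the median of the 5 arrays, in place of the 0 min array. Of the recomputed changes of named members, 804 stayed within the spread and 36 did not, 26 of them with normexp background. The trend called 2 genes with the filter on all 5 arrays, 1 gene with no filter and 2 with the series matrix, none of them a proteasome gene. Leaving out each array in turn gave 0 calls. Without a filter, Psmb3 had an unadjusted limma p of 0.0076 (adjusted p = 0.770). The 60 min array alone on its slide limits every statement about that time.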
